A study of Mus musculus with 4 samples.

Results

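The 37 genes described here, called spliceosome genes below, encode core proteins of the spliceosome and Lsm1, which belongs to a cytoplasmic ring instead. The proteins are the Sm proteins, those particular to the U1 and U2 small nuclear ribonucleoproteins (snRNPs), the SF3A and SF3B complexes and the U2AF pair. Also among them are 6 proteins of the U5 snRNP and the U4/U6.U5 tri-snRNP, Prpf19, and the Lsm proteins. The genes were chosen by symbol, and each symbol was represented by its row of highest mean in a table of 23697 rows. All 37 had a row, each with a single row of its own, and all 37 were among the 11784 rows whose mean over the libraries was at least 1 FPKM (fragments mapped to a transcript, per kilobase of its length and scaled to the library's depth). The libraries came from WW6 mouse embryonic stem cells, a line of mixed C57/B6J, 129/Sv and SJL background grown without feeder cells in serum and leukemia inhibitory factor. Knockdown cells were transiently transfected with siRNA against Kdm5b, a demethylase acting on methylated lysine 4 of histone H3, and control cells received siRNA against GFP with the same lipid reagent. Each group had 2 libraries, A and B. The labels do not say how long after transfection the RNA was taken, nor whether the libraries of a group are separate cultures, and every p-value below therefore measures only the spread between these libraries.

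The spliceosome removes introns from precursor messenger RNA. The U1 snRNP pairs with the start of an intron, U2AF and the U2 snRNP with its SF3 complexes recognise its end and its branch site, and the tri-snRNP of U4, U6 and U5 then joins before the catalytic rearrangements. A ring of Sm proteins encircles the U1, U2, U4 and U5 snRNAs, whereas U6 carries a ring of Lsm proteins instead. A ring of related make-up, with Lsm1 in place of Lsm8, acts in the cytoplasm in decapping of messenger RNA. Proliferating stem cells express these genes at high levels, and the SF3B complex is known for its requirement in early embryos.

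Kdm5b itself (mm9 chr1:136456754-136529455) stood at 22.7 and 31.1 FPKM in knockdown libraries A and B, against 99.7 and 145 FPKM in control A and B. Its log2 fold change was -2.14 (SE 0.30) and its adjusted p was 0.562 (limma, Benjamini-Hochberg), so the targeted gene was also not called. Knockdown A stood apart from the other libraries: it listed 11953 rows at 0, against 8609 in knockdown B, 8131 in control A and 8281 in control B. Its depth, estimated from the steps between the lowest FPKM values, was 78.2% of that of control B, against 100% for knockdown B and 102.8% for control A. The 10 embryonic stem cell markers averaged 80.1 to 1680 FPKM, with summed levels of 4815 and 4072 FPKM in the knockdown libraries and 3689 and 4490 FPKM in the controls. Of the markers of other cells, 2 of 7 for fibroblasts, 3 of 7 for endoderm, 0 of 5 for trophoblast and 4 of 4 for neural ectoderm had a mean of at least 1 FPKM. The summed fibroblast markers were at 1.31 and 1.81 FPKM in knockdown and 10.1 and 4.31 FPKM in control libraries, with Col3a1 and Postn at 0 in both knockdown libraries. The endoderm sums were 2.32 and 2.64 FPKM against 6.95 and 8.37 FPKM, with Foxa2 and Afp at 0 in both knockdown libraries, the trophoblast sums 0.201 and 2.06 FPKM against 2.18 and 1.10 FPKM, with Elf5 at 0 in both knockdown libraries, and the neural sums 55.4 and 49.9 FPKM against 63.2 and 65.3 FPKM. The part of these differences in the results below was not tested. In bulk RNA, fewer cells of a type and less RNA per cell cannot be told apart.

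The spliceosome genes were abundant transcripts, with a median of 94.6 FPKM over the members against 12.3 FPKM over all tested rows. Their levels ran from 3.22 FPKM for Lsm7 to 335 FPKM for Snrpd2. No member was called higher and none lower in knockdown cells at an adjusted p under 0.05 (limma on log2(FPKM + 1), Benjamini-Hochberg over all 11784 rows). Over all tested rows, 0% were called higher and 0.0339% lower, so the members' counts are read against a test that called very little. At an unadjusted limma p under 0.05 there were 0 members higher and 2 lower, Lsm7 and Snrpa, against 114 rows higher and 176 lower in all. The adjusted p of the members lay between 0.918 and 0.996 (limma). Log2 fold changes were positive in 24 members and negative in 13, with a median of 0.04 (0.05 without Lsm7, which was listed at 0 in both knockdown libraries). Over all tested rows, 5555 were positive and 6229 negative, with a median of -0.03. The 95% interval of the fold change lay within 1 log2 unit of 0 in 21 of the 37 members, or 56.8%, and in 32.8% of all tested rows. With 2 libraries a group, the members' intervals had a median half-width of 0.66 log2 units. These are unadjusted intervals, and changes well beyond them did not pass the adjusted test, as the values of Kdm5b show.

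**Figure D1:**
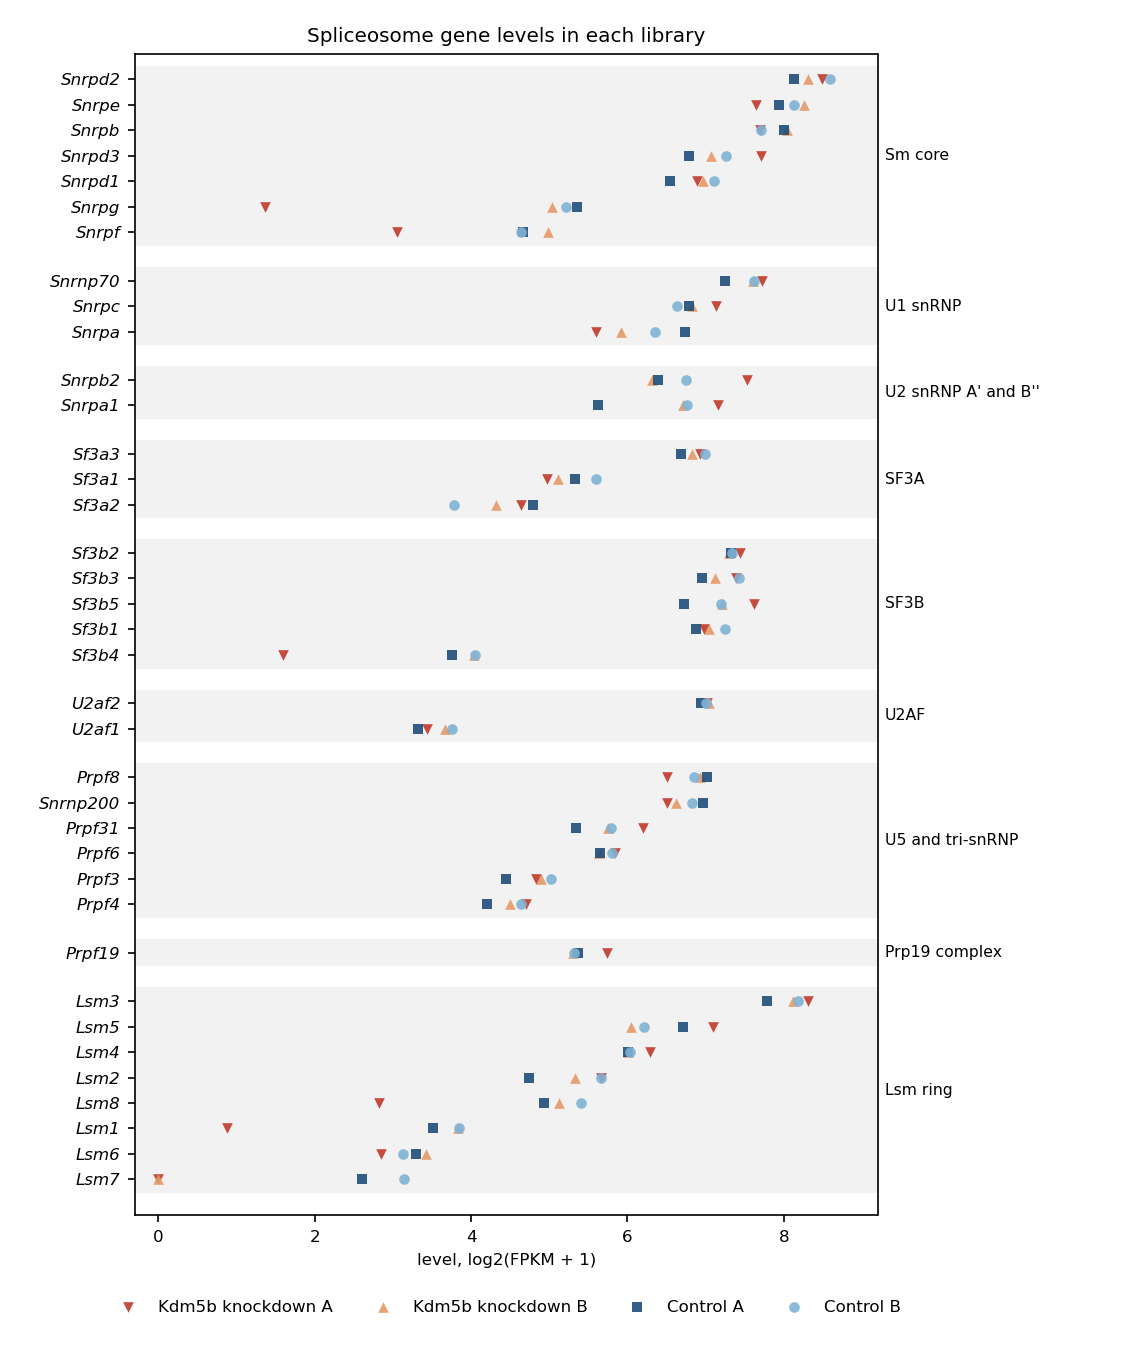
Levels of the 37 spliceosome genes on a log2(FPKM + 1) axis, grouped by complex and ordered by mean within each, with 1 symbol per library: 2 Kdm5b knockdown libraries and 2 controls. For most genes the 4 symbols lie close together, while knockdown A lies far to the left for Snrpg, Snrpf, Sf3b4, Lsm8 and Lsm1, and both knockdown libraries are at 0 for Lsm7.

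Whether the groups were separated was also read without a model. Both knockdown libraries lay below both controls for 5 of the 37 members (Snrpg, Snrpa, Sf3a1, Snrnp200 and Lsm7), and this order held for 16.9% of all tested rows. Both lay above both controls for 3 members (Snrpc, Sf3b5 and U2af2), and for 15% of all rows. The difference between group means exceeded both within-group differences in 4 members (Snrpa, Sf3a1, Snrnp200 and Lsm7), and in 17.8% of all rows. The members were thus separated by group no more often than the table as a whole.

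The 3 promoter stretches printed here are examples picked from the values: Lsm7, listed at 0 in both knockdown libraries, Snrpg, low in knockdown A, and Snrpa, lower in both. Snrpg was the lowest member by fold change apart from Lsm7, for which no fold is given, while Lsm1, Lsm8 and Sf3b4 lay below Snrpa. Lsm8 and Snrpf, also low in knockdown A, had windows that are not printed. Each is the 250 bases before the most upstream annotated start, 5′ to 3′ on the gene's strand. The starts are those of the RefSeq table of the GRCm38.p6 build, which differs from the mm9 build of the expression table. The capitals mark matches, on either strand, to GGGCGG (the GC box of Sp and KLF factors), CCGGAAG (the core of ETS factor sites), CCAAT (the CCAAT box) and TATAAA (the TATA box).
Lsm7: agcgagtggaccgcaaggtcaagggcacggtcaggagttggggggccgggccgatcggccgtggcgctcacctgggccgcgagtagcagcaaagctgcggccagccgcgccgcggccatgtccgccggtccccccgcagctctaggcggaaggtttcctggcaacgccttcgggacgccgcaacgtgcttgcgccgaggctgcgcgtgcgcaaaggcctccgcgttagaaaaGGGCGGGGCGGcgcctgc
Snrpg: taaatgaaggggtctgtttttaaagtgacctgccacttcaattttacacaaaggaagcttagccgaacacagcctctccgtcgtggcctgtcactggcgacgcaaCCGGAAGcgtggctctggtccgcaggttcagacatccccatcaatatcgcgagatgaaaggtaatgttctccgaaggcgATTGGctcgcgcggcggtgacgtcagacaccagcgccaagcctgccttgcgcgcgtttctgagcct
Snrpa: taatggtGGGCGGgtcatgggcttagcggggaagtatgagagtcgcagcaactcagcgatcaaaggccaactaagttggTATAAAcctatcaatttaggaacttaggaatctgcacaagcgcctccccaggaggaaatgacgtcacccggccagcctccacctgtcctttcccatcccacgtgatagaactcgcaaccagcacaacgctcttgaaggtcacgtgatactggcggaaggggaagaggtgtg
The Lsm7 stretch (chr10:80855210-80855459, minus strand) had 34 CpG dinucleotides and a GC content of 72.4%, with 2 overlapping GC boxes next to the start. It belongs to the upstream of 2 starts listed for Lsm7. The Snrpg stretch (chr6:86371290-86371539, plus strand) had 21 CpG dinucleotides, 1 CCGGAAG and 1 CCAAT, read on the opposite strand as ATTGG. The Snrpa stretch (chr7:27196272-27196521, minus strand) had 12 CpG dinucleotides, 1 GC box and 1 TATAAA, and it belongs to the upstream of 2 starts listed for the gene. GGGCGG was in the Lsm7 and Snrpa stretches, and no motif searched was in all 3.

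Promoter windows of 300 bases (250 before the start and 50 after) were in the RefSeq table for 30 of the 37 members; Snrpb, Snrpd1, Sf3b4, Sf3b5, U2af2, Lsm1 and Lsm4 had no entry. Where a gene had several listed starts, a motif was counted if any of their windows held it. CCGGAAG was present in 14 of the 30 members (46.7%). It was in 21.3% of the 9240 genes of tested rows that had a window, and in 9.93% of all 27025 genes with a window. GGGCGG was in 18 members (60%), against 70.8% of tested genes and 38.2% of all genes with a window. CCAAT was in 12 (40%), against 43.7% and 41.1%, TATAAA in 2 (6.67%), against 8.33% and 15.7%, and AAGATGGC, the core of the YY1 site, in 2 (6.67%), against 5.62% and 3.19%. All motifs were searched on both strands, and a match is a description of the letters, not a bound site. The ratio of observed CpG dinucleotides to those expected from base composition was taken as the highest among a gene's windows. Its median was 0.943 in the members, against 0.803 in tested genes and 0.415 in all genes with a window.

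The Sm core proteins form the ring that is loaded on the snRNA in the cytoplasm. Snrpd2 (Sm D2), the most abundant member, was at 360 and 315 FPKM in knockdown libraries A and B and at 280 and 385 FPKM in control A and B. The groups overlapped, and the log2 fold change was 0.04 (SE 0.24; limma adjusted p 0.986). Snrpe averaged 253 ± 76.0 FPKM in knockdown and 262 ± 24.9 FPKM in control libraries (SD, n = 2 each, as for all such values), and Snrpb, which encodes the Sm B proteins, 234 ± 39.9 and 231 ± 33.1 FPKM. Snrpd3 and Snrpd1, the other Sm D proteins, had log2 fold changes of 0.36 and 0.10, and Snrpe and Snrpb of -0.08 and 0.01, with overlapping groups in each.

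Snrpg (Sm G, mm9 chr6:86321533-86328896) had the lowest fitted value of the Sm genes. It was at 1.57 and 31.8 FPKM in knockdown libraries A and B, against 40.0 and 36.1 FPKM in control A and B. Both knockdown libraries lay below the controls, but knockdown B was close to them and knockdown A far below, so the log2 fold change of -2.09 had an SE of 1.09 (limma adjusted p 0.918). Without knockdown A it was -0.25, and without knockdown B -3.92. Snrpf (Sm F, mm9 chr10:93003376-93067990) was at 7.30 and 30.6 FPKM in knockdown libraries A and B and 24.2 and 23.9 FPKM in control A and B. Knockdown A lay below the controls and knockdown B above them (log2 fold change -0.63, SE 0.61; limma adjusted p 0.918), and without knockdown A the value was 0.33. The Snrpf row shares its interval with the rows of Ccdc38 and 4933408J17Rik, so fragments may be shared between them. Sm F and Sm G bind each other with Sm E before they join the ring, and the gene of that partner, Snrpe, was at 199 and 307 FPKM in knockdown libraries A and B, against 244 and 279 FPKM in the controls.

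Of the proteins particular to the U1 snRNP, Snrnp70 (U1-70K), which binds the first stem loop of U1 snRNA, was the most abundant. It was at 210 and 194 FPKM in knockdown libraries A and B and 151 and 195 FPKM in control A and B, with overlapping groups (log2 fold change 0.23, SE 0.23; limma adjusted p 0.918). Snrpc, which steadies the pairing of U1 with the intron's start, was at 140 and 112 FPKM in knockdown libraries, against 109 and 98.1 FPKM in controls, and the groups did not overlap (log2 fold change 0.27).

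Snrpa (mm9 chr7:27972024-27989339) had the smallest p of the members apart from Lsm7. Its product binds another stem loop of U1 snRNA and is known from human cells to limit polyadenylation of its own messenger RNA. Snrpa was at 47.4 and 59.2 FPKM in knockdown libraries A and B, against 105 and 81.1 FPKM in control A and B. Its mean of 53.3 ± 8.37 FPKM in knockdown libraries was 57.2% of the 93.2 ± 17.2 FPKM in controls. The log2 fold change was -0.79 (SE 0.26, 95% interval -1.41 to -0.17; limma adjusted p 0.918), and the row ranked 81 by p among the 11784 tested. With any library left out it stayed negative, between -0.98 and -0.60. The row shares its interval with BC024978, and 2 pseudogenes are near-identical to part of its transcript, so its fragments may not all come from Snrpa.

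The U2 snRNP proteins Snrpa1 and Snrpb2 bind a stem loop of U2 snRNA as a pair. Snrpa1 (mm9 chr7:73205221-73219473) was at 141 and 104 FPKM in knockdown libraries A and B and 48.5 and 108 FPKM in control A and B. Control A was less than 0.5 times the lowest of the other libraries, and the other 3 lay between 104 and 141 FPKM. Its log2 fold change of 0.74 (SE 0.41; limma adjusted p 0.918) was the highest of the members, and it was 0.17 without control A. Snrpb2 was at 183 and 78.6 FPKM in knockdown libraries A and B and 82.8 and 106 FPKM in control A and B. Here knockdown A was the highest library and knockdown B the lowest (log2 fold change 0.35, SE 0.42; limma adjusted p 0.918).

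SF3A, a complex of 3 proteins, ties SF3B to the U2 snRNP. Sf3a3 was its most abundant gene, at 121 and 113 FPKM in knockdown libraries A and B and 102 and 126 FPKM in control A and B (log2 fold change 0.04, SE 0.22; limma adjusted p 0.983), with overlapping groups. Sf3a2, the least abundant, was at 24.0 and 19.0 FPKM in knockdown libraries A and B and 26.7 and 12.7 FPKM in control A and B, where the controls lay on either side of the knockdown libraries (log2 fold change 0.20, SE 0.40; limma adjusted p 0.947). Sf3a1 was at 30.4 and 33.6 FPKM in knockdown libraries A and B, against 39.1 and 47.4 FPKM in control A and B. Its groups did not overlap, and its log2 fold change was -0.42.

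SF3B holds the branch site of the intron. Sf3b2 was its most abundant gene, at 173 and 157 FPKM in knockdown libraries A and B and 159 and 162 FPKM in control A and B (log2 fold change 0.04, SE 0.20; limma adjusted p 0.981). Sf3b1, the large subunit that clamps the branch site duplex and that is often mutated in human myelodysplasia, averaged 128 ± 4.10 FPKM in knockdown and 134 ± 24.0 FPKM in control libraries, with a log2 fold change of -0.05. Sf3b3, the scaffold beside it, had a log2 fold change of 0.07, and Sf3b5, the small subunit, was at 196 and 147 FPKM in knockdown libraries against 105 and 146 FPKM in controls (log2 fold change 0.45). The knockdown libraries both lay above the controls for Sf3b5, but knockdown B exceeded control B by less than 1 FPKM.

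Sf3b4, whose product contacts the RNA just before the branch site, was the SF3B gene of lowest level (mm9 chr3:95976472-95981487). It was at 2.02 and 15.4 FPKM in knockdown libraries A and B and 12.5 and 15.6 FPKM in control A and B. Knockdown A alone was low, and knockdown B lay within the control range (log2 fold change -1.09, SE 0.77; limma adjusted p 0.918). Without knockdown A the value was 0.13.

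U2AF is a pair of proteins in which U2af2 binds the polypyrimidine tract and U2af1 the end of the intron. U2af2 was at 129 and 131 FPKM in knockdown libraries A and B, against 122 and 128 FPKM in control A and B. The groups did not overlap, yet the log2 fold change was only 0.06 (SE 0.20; limma adjusted p 0.972). U2af1 was at 9.84 and 11.6 FPKM in knockdown libraries A and B and 8.97 and 12.5 FPKM in control A and B, the controls lying on either side (log2 fold change 0.02, SE 0.33; limma adjusted p 0.996). Transcripts of U2af1 are near-identical in part to 3 pseudogenes, so its level relative to U2af2 is uncertain.

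Among the U5 and tri-snRNP genes, Prpf8, the protein at the catalytic centre, was at 90.3 and 121 FPKM in knockdown libraries A and B and 129 and 114 FPKM in control A and B (log2 fold change -0.21, SE 0.24; limma adjusted p 0.918). Snrnp200, the helicase that unwinds U4 from U6, was at 90.1 and 97.9 FPKM in knockdown libraries against 125 and 113 FPKM in controls. Its groups did not overlap, and its log2 fold change was -0.33. Prpf6, which bridges U5 and the U4/U6 snRNP, had a log2 fold change of 0.01, Prpf31, a U4 protein mutated in human retinitis pigmentosa, 0.41, and Prpf3, a U4/U6 protein, 0.13, each with overlapping groups. Prpf4, the partner of Prpf3 and the least abundant of these genes, was at 25.0 and 21.6 FPKM in knockdown libraries A and B and 17.4 and 24.0 FPKM in control A and B (log2 fold change 0.18, SE 0.29; limma adjusted p 0.935). The ubiquitin ligase gene Prpf19, which gives its name to the complex that joins at activation, was at 52.4 and 38.4 FPKM in knockdown libraries A and B and 40.4 and 39.0 FPKM in control A and B (log2 fold change 0.17, SE 0.26; limma adjusted p 0.931). Its knockdown libraries lay on either side of the controls.

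Of the 8 Lsm genes, Lsm3 was the most abundant, at 316 and 276 FPKM in knockdown libraries A and B and 219 and 290 FPKM in control A and B, with overlapping groups (log2 fold change 0.23, SE 0.23; limma adjusted p 0.918). Lsm2, Lsm4, Lsm5 and Lsm6, which are shared by the nuclear and the cytoplasmic ring, had log2 fold changes of 0.29, 0.13, 0.11 and -0.08, and the groups overlapped in each. Lsm5 varied most among these, at 136 and 65.0 FPKM in knockdown libraries A and B and 104 and 73.3 FPKM in control A and B.

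Lsm7, also a protein of both rings (mm9 chr10:80315569-80317954), was listed at 0 in knockdown A and B, against 5.08 and 7.80 FPKM in control A and B. Its limma adjusted p was 0.918, and the row ranked 11 by p. No fold is given, since an exact 0 can be a failed estimate and the control values correspond to few fragments. By the depth estimate these were about 5.84 and 8.73 fragments, with 200 bases taken off a transcript of 468 bases. Its transcript is near-identical in part to 2 pseudogenes. It was the only member with a mean under 5 FPKM.

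The genes that tell the nuclear from the cytoplasmic ring, Lsm8 and Lsm1, were singled out after their values were seen. Lsm8, which marks the U6 ring (mm9 chr6:18798634-18804052), was at 6.05 and 33.8 FPKM in knockdown libraries A and B and 29.6 and 41.3 FPKM in control A and B (log2 fold change -1.20, SE 0.72; limma adjusted p 0.918). Lsm1, which marks the decapping ring (mm9 chr8:26896062-26914447), was at 0.840 and 13.3 FPKM in knockdown libraries A and B and 10.4 and 13.4 FPKM in control A and B (log2 fold change -1.32, SE 0.92; limma adjusted p 0.918). In both genes knockdown A was low and knockdown B lay within the control range. Without knockdown A the log2 fold changes were -0.05 for Lsm8 and 0.16 for Lsm1.

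**Figure D2:**
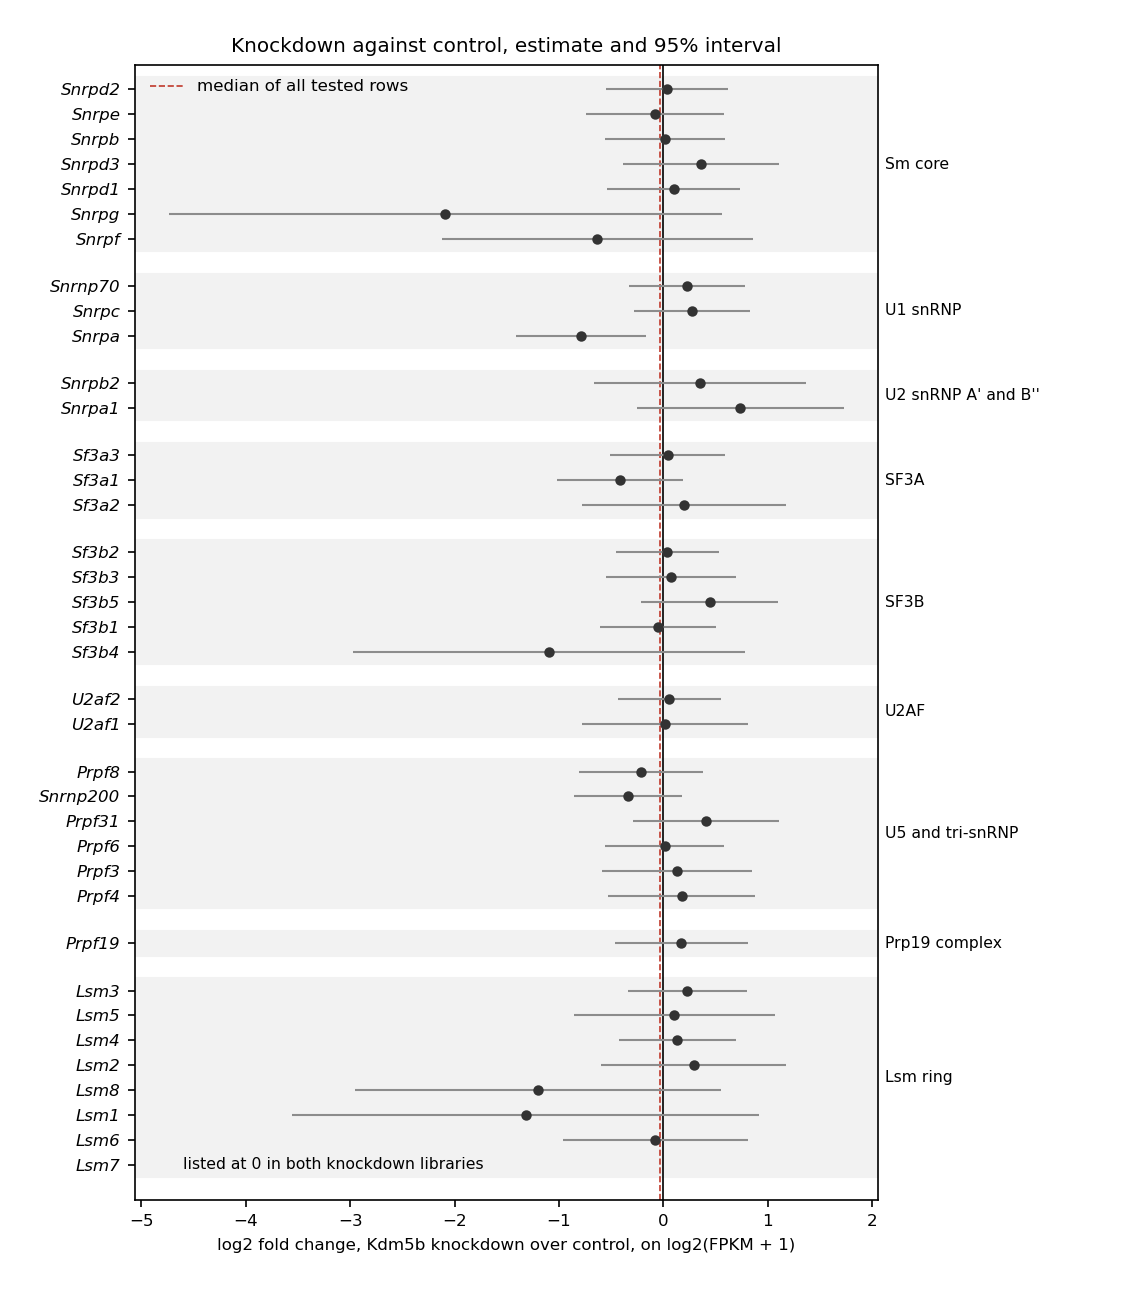
Log2 fold change of each spliceosome gene, Kdm5b knockdown over control on log2(FPKM + 1), with its 95% interval from limma (n = 2 libraries each); the dashed line is the median of all tested rows, -0.03. The intervals of all genes drawn except Snrpa include 0, those of Snrpg, Sf3b4, Lsm8 and Lsm1 are the widest, and Lsm7 has no fold because both knockdown libraries were listed at 0.

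In several members a single library stood apart. Knockdown A was less than 0.5 times the lowest of the other libraries in 5 members, Snrpf, Snrpg, Sf3b4, Lsm1 and Lsm8, and in 14.2% of all tested rows. Knockdown B was so in 0 members and 0.967% of rows, control A in 1 member, Snrpa1, and 1.12% of rows, and control B in 0 members and 0.857% of rows. All 5 members low in knockdown A had means between 5 and 50 FPKM, where 13 of the 37 members lay, and in that range 7.67% of tested rows were low in the same way. From the estimated depth, the values of knockdown A stood for 4.39 fragments of Snrpg, 6.75 of Lsm1, 11.3 of Sf3b4, 12 of Lsm8 and 15.8 of Snrpf, against 113, 137, 110, 85.7 and 84.4 fragments in knockdown B, with 147, 110, 92.4, 77.3 and 68.8 in control A and 129, 138, 112, 105 and 66.0 in control B. These numbers are FPKM multiplied by estimated depth and by transcript length less 200 bp. They depend on the annotated length used, and the part of depth in the low values was not tested. Transcripts of Snrpg, Snrpf and Sf3b4 are near-identical in part to pseudogenes, whereas none was found for Lsm1 and Lsm8. Without knockdown B, the fit set knockdown A alone against the controls and called 2 members lower, Snrpg (log2 fold change -3.92, limma adjusted p 0.0213) and Lsm1 (-2.80, limma adjusted p 0.0488). In that fit 119 rows were called lower and 15 higher over the whole table. Without knockdown A it called 0 members, with 2 rows lower and 11 higher in all.

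**Figure D3:**
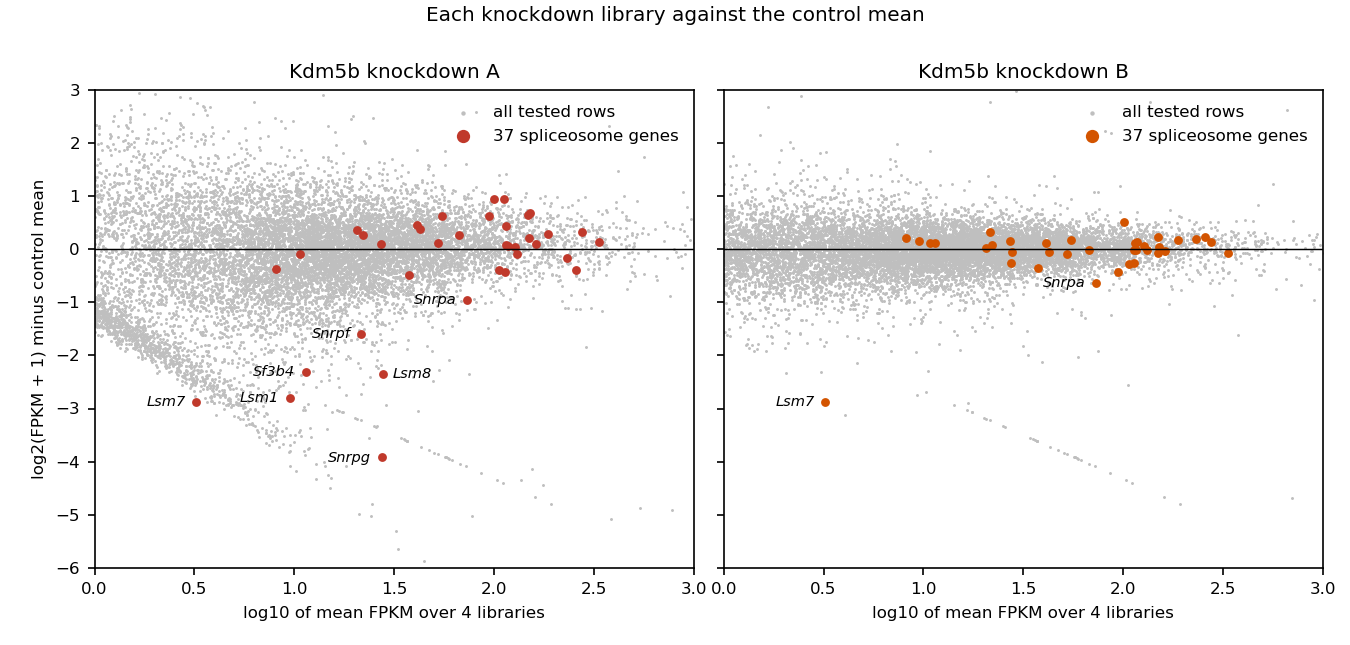
Difference of knockdown A (left) and knockdown B (right) from the mean of the 2 controls on log2(FPKM + 1), against the log10 of the mean FPKM over the 4 libraries; grey points are tested rows and coloured points the 37 spliceosome genes, and rows outside the axes are not drawn. In knockdown A, Snrpg, Lsm8, Lsm1, Sf3b4 and Snrpf lie well below 0, whereas in knockdown B Lsm7 is the only member more than 1 log2 unit from 0.

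Low and high members are given apart, with no test between them. In the 14 members with a mean under 50 FPKM, the median difference from the control mean was -0.43 log2 units in knockdown A and 0.10 in knockdown B. In tested rows of 5 to 50 FPKM (a range that leaves out Lsm7) it was -0.04 and 0.0052. The median log2 fold change was -0.25 in these 14 members, Lsm7 included, and -0.03 in those rows. With Lsm7 left out, Lsm6 was the middle member in fold change, at -0.08. Lsm6 was then also the middle member in knockdown A, at -0.36 from the control mean. In the 23 members of at least 50 FPKM, the median difference from the control mean was 0.13 in knockdown A and -0.0029 in knockdown B. In all tested rows at that level it was 0.11 and 0.04. Of these members, 18 fold changes were positive and 5 negative with a median of 0.07. The tested rows at that level had 1164 positive and 725 negative, also with a median of 0.07. Knockdown A was the highest of the 4 libraries in 14 of the 37 members, against 33.2% of all tested rows, and the lowest in 12, against 38.4% of all tested rows. Control A was the lowest library in 17 members, against 26.2% of all tested rows. Within groups, the median difference between libraries A and B was 0.32 log2 units in knockdown and 0.37 in control cells for the members, against 0.44 and 0.32 for all tested rows. By complex, the median log2 fold change was 0.01 for the Sm core, 0.23 for U1, 0.55 for the U2 pair, 0.04 for SF3A, SF3B and U2AF each, 0.07 for U5 and tri-snRNP and 0.02 for the Lsm genes.

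Other genes of the splicing machinery and its assembly gave 94 more rows at a mean of at least 1 FPKM. None was called in either direction (limma), 0 had an unadjusted limma p under 0.05, and 56 fold changes were positive and 38 negative with a median of 0.09. Over all tested rows, 5555 were positive and 6229 negative. The median was 0.07 for SF3B and U2-related genes (13 rows, 8 positive and 5 negative) and -0.02 for U1-related genes (6 rows, 3 and 3). It was 0.13 for the other tri-snRNP genes (20 rows, 14 and 6) and 0.03 for the Prp19 and catalytic-step genes (19 rows, 11 and 8). For the genes of the minor spliceosome (9 rows, 3 and 6) it was -0.09. Relatives of Sm and Lsm proteins (7 rows, 5 and 2) had a median of 0.13, and the SMN complex and its partners, which load the Sm ring (12 rows, 9 and 3), 0.14. The decapping partners of the Lsm1 ring (8 rows, 3 and 5) had the lowest median, -0.31. Their median difference from the control mean was -0.26 in knockdown A and 0.04 in knockdown B, against -0.04 and 0.0063 in all tested rows.

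Knockdown A was the outlying library in several of the genes with the largest absolute fold change in these lists. These genes were picked by fold change, so they do not show how often knockdown A was low. By the cut-off used for the members, knockdown A was low only in Cherp, Mfap1a, Rbm22, Zcrb1, Gemin8, Dcp1b and Xrn1 among the 94 rows. The share in all tested rows was 14.2%. The median difference of knockdown A from the control mean was 0.09 over the 94 rows, against -0.04 in all tested rows. Mfap1a, a tri-snRNP protein gene, was at 0.0939 and 7.81 FPKM in knockdown libraries A and B and 6.67 and 7.84 FPKM in control A and B, and its log2 fold change of -1.41 became 0.10 without knockdown A. Zcrb1 of the minor spliceosome was at 3.87 and 18.8 FPKM in knockdown libraries A and B and 17.0 and 18.5 FPKM in control A and B, Cherp at 2.77 and 13.7 FPKM against 10.4 and 9.65 FPKM, and the exonuclease gene Xrn1, from the list of decapping partners, at 3.76 and 13.9 FPKM against 13.7 and 10.3 FPKM. Knockdown A was the low library in each. In the same way Prpf40b, which binds early with U1, was at 4.39 and 11.2 FPKM against 8.18 and 11.9 FPKM, and Rbm22, which binds U6 at activation, at 12.7 and 35.5 FPKM against 39.4 and 36.5 FPKM. Ppih, a tri-snRNP cyclophilin gene, was high in knockdown A instead, at 33.5 and 10.7 FPKM in knockdown libraries A and B and 10.8 and 9.46 FPKM in control A and B (log2 fold change 0.85, or 0.07 without knockdown A), and Snrnp25, of the minor U11/U12 snRNP, was likewise at 60.3 and 25.0 FPKM against 23.3 and 28.6 FPKM.

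Over the 94 rows, both knockdown libraries lay below both controls in 8 and above both in 14, against 16.9% and 15% of all tested rows. Of the genes named by the rule for their large fold changes, 3 lay below and 2 above. Isy1, of the Prp19-related group, was at 81.0 and 58.5 FPKM in knockdown libraries A and B, against 28.7 and 52.2 FPKM in control A and B (log2 fold change 0.81, or 0.39 without control A), and Lsm14a, a decapping regulator, at 61.5 and 50.2 FPKM against 38.7 and 43.4 FPKM (0.43). Below the controls were Gemin8 of the SMN complex, at 0.924 and 2.16 FPKM in knockdown libraries A and B against 3.60 and 3.26 FPKM in control A and B (-0.84, or -0.49 without knockdown A), and Rbm22 (-0.80, or -0.09 without knockdown A) and Luc7l3, a U1-related gene at 35.4 and 40.6 FPKM against 45.3 and 50.9 FPKM (-0.33). The remaining genes named by the rule overlapped between groups. Dhx15, the helicase that takes spliceosomes apart, had a log2 fold change of 0.37 (0.13 without knockdown A), Gemin6 0.55 (0.04 without control A), Lsm10 of the U7 snRNP -0.59 (0.20 without knockdown B) and Patl1, a decapping activator, -0.61 (-0.22 without knockdown A and -0.30 without control A). None of them passed the limma test, at adjusted p from 0.918.

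**Figure D4:**
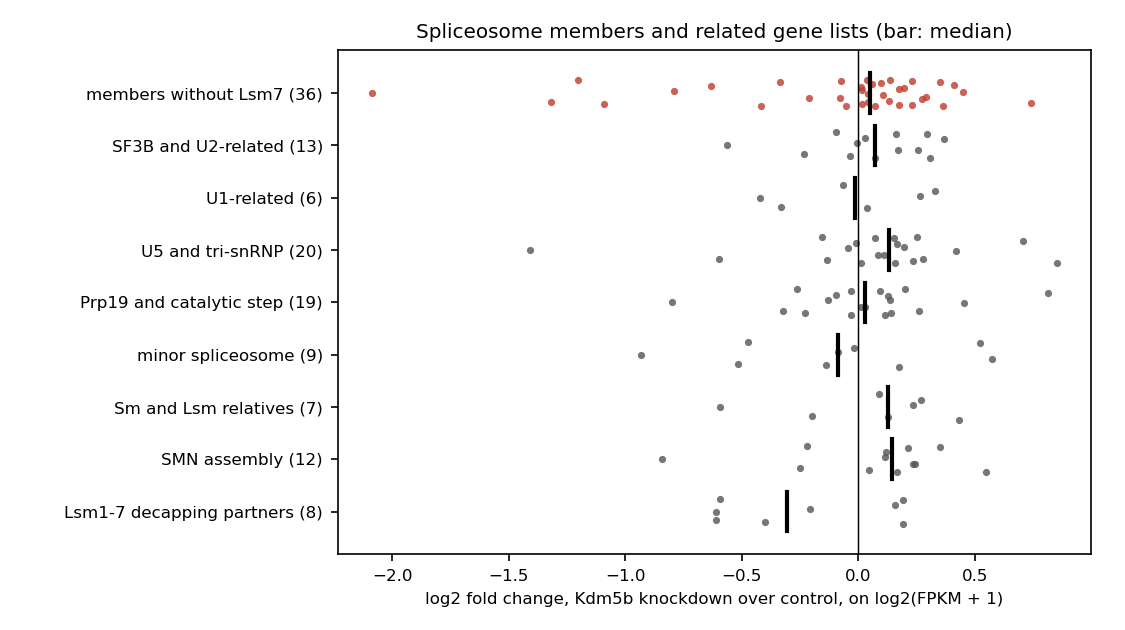
Log2 fold change, Kdm5b knockdown over control on log2(FPKM + 1), of the spliceosome members other than Lsm7 (top, red) and of 8 lists of related genes (grey), with the number of genes in brackets; the black bar is the median of each. All medians drawn lie between -0.31 and 0.14, and the lowest points of the members and of the tri-snRNP list are Snrpg and Mfap1a, both low in knockdown A.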

How the data were processed

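RNA was measured in 4 libraries. Per the labels' protocols, total RNA was depleted of ribosomal RNA, primed with oligo-dT and random hexamers, made into libraries that keep strand (dUTP), from fragments of 300 bp. The deposited values, made by the authors, are FPKM per row and library, which are not counts. The submitters' processing notes name Cufflinks, Cuffdiff and the mm9 build. Tool versions, the aligner and any use of strand were not given in the sources used here. Overlapping or antisense genes may share fragments (4 of the 37 members share an interval with another row).

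Rows were named through RefSeq identifiers with a GRCm38.p6 table used for names only, which gave 1 symbol to 23241 of 23697 rows. Rows with a mean of at least 1 FPKM were tested with limma 3.58.1 in R 4.3.3 on log2(FPKM + 1), which understates changes of low genes (group alone, eBayes with trend, two-sided), and p-values were adjusted by Benjamini-Hochberg over all 11784 rows. The fit was tested on simulated data. FPKM carries no totals: depth was estimated from low values, 81.2% to 83.3% of which lay within 0.15 of a whole fragment, at 5.88 and 7.52 fragments per FPKM in knockdown A and B and 7.73 and 7.52 in control A and B for a transcript of 2000 bp. Fragment estimates took 200 bp off the transcript length, which for each member was that of the longest transcript listed for its RefSeq identifiers. No counting interval was made from these estimates, and no whole reads were recovered.

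Transcripts of 14 members matched a pseudogene at 95% identity or more over at least 200 bp (BLAST 2.17.0). These were Snrpd1, Snrpd2, Snrpe, Snrpf, Snrpg, Snrpa, Snrpc, Sf3b4, U2af1, U2af2, Prpf19, Lsm5, Lsm6 and Lsm7. Promoter windows came from RefSeq (GRCm38.p6). Figures were drawn with matplotlib 3.10.9 in Python 3.11.15. The members and lists were chosen with earlier results of these data known. All 37 members were accounted for. Values per library with statistics were given for members under 5 FPKM, for members whose knockdown libraries both lay outside the control range with a log2 fold change of at least 0.5 in size, and for the highest and lowest member of each complex, and in each other list for the 2 genes of largest absolute log2 fold change. Values of further genes, Lsm1, Lsm8, Snrpc, Snrpe, Sf3a1, Sf3b5, Snrnp200 and Lsm5, were added after they were seen. Alternatives were other pseudocounts, filters, scalings, eBayes settings, a sum over rows, the replicate letter as a block and each library left out.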

Additional observations from a re-analysis of the deposited data

How the results depend on the processing

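No member was called higher under any of the 14 alternatives (limma), and none lower under 13 of them. Lsm7 was not tested with the filter at 5 FPKM. The count called lower was 0 to 2 with a library left out, 2 being the fit without knockdown B, where the lone knockdown A is assumed to vary like the controls. The members' median of 0.04 stayed between 0.02 and 0.06 under the alternatives that keep all libraries, and lay between -0.12 (without control A) and 0.13 (without control B) with a library left out. Under a replicate block by the letters A and B it was 0.04, with 0 members called and 4 at an unadjusted p under 0.05. The labels do not say that the letters pair libraries, and deviations of the A libraries from their group means correlated at -0.07 over 11784 rows. Quantile normalization turned the sign of Sf3a3 (-0.0043), Prpf6 (-0.0207) and Lsm6 (0.0181).

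Leaving out a library turned the sign of 22 members, 14 of them without knockdown A, 2 without knockdown B, 10 without control A and 5 without control B. Their log2 fold changes with a library left out ran as follows. In the Sm core the ranges were -0.16 to 0.19 for Snrpb, -0.18 to 0.38 for Snrpd1, -0.19 to 0.26 for Snrpd2, -0.39 to 0.23 for Snrpe and -1.59 to 0.33 for Snrpf. For U2, SF3 and U2AF genes they were -0.25 to 0.96 for Snrpb2, -0.31 to 0.70 for Sf3a2, -0.12 to 0.20 for Sf3a3, -0.23 to 0.13 for Sf3b1, -0.0291 to 0.11 for Sf3b2, -0.17 to 0.31 for Sf3b3, -2.31 to 0.13 for Sf3b4 and -0.20 to 0.23 for U2af1. For tri-snRNP genes and Prpf19 they were -0.0892 to 0.12 for Prpf6, -0.15 to 0.42 for Prpf3, -0.0449 to 0.40 for Prpf4 and -0.0462 to 0.39 for Prpf19. For Lsm genes they were -2.80 to 0.16 for Lsm1, -0.17 to 0.75 for Lsm2, -0.0106 to 0.27 for Lsm4, -0.42 to 0.63 for Lsm5 and -0.36 to 0.21 for Lsm6. Among the other genes they were -1.54 to 0.42 for Cherp, -1.01 to 0.17 for Prpf40b, -2.91 to 0.10 for Mfap1a, -1.94 to 0.0791 for Zcrb1, -0.0473 to 1.19 for Snrnp25, -1.39 to 0.20 for Lsm10 and -1.43 to 0.21 for Xrn1. The cause was not tested.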
